A study of Mus musculus with 11 samples.

Results

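The genes described here build the entry gate and the folding shop of the endoplasmic reticulum (ER). They are 49 genes of the signal recognition particle and its receptor, the protein-conducting channel, the signal peptidase, the oligosaccharyl transferase, the ER chaperones and the sensors of misfolded protein. The genes are grouped by what they do in the ER. Of the 49, 44 matched a probe set through the RefSeq accession that names it, each with 1 probe set. Srp72, Sec61g, Spcs3, Dnajc3 and Atf6 had no match and were not analysed here. Tests were run on probe sets that reached a log2 level of 5 on at least 2 of the 11 arrays, which kept 40 members among 8085 genes. The other 4, Sec61a2, Tram2, Sdf2l1 and Ern1, lay below this level.

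Secreted and membrane proteins enter the ER while they are being made. The signal recognition particle binds the first stretch of the new chain, docks the ribosome at its receptor on the ER membrane, and the chain then passes through the Sec61 channel. Inside, the signal peptidase trims it, the oligosaccharyl transferase adds sugar chains, and lectins, disulfide isomerases and chaperones fold it. Misfolded protein switches on Ern1 and Atf6, and Ern1 activates Xbp1 by splicing, which raises transcription of many of these genes. Lung cells that make surfactant, mucins, collagen or antibodies depend heavily on this route.

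Lung RNA was measured on 1-colour arrays in 4 groups of Balb/c mice. There were 3 arrays of total RNA from wild-type (WT) mice, 3 of total RNA from mice lacking both Eif4ebp1 and Eif4ebp2 (4ebp1-/-/4ebp2-/-, called knockout or KO here), 2 of polysomal RNA from WT and 3 of polysomal RNA from KO. The 2 deleted genes encode repressors of the cap-binding translation factor eIF4E. Polysomal RNA pooled gradient fractions 7 to 10, that is messages carrying at least 3 ribosomes. All mice were on a purified diet from 5 weeks of age, and their age at sampling was not stated. The KO mice were a gift from a laboratory and the WT mice came from a commercial breeder, so a difference of colony and the loss of the genes cannot be told apart. No label tells whether every array holds RNA of a separate mouse, so the spread behind each p-value may be technical.

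Many ER chaperone genes share a promoter element, the ER stress response element (ERSE), made of CCAAT and CCACG with 9 bases of any kind between them. It was searched on both strands of windows from 250 bases before to 50 after each start in the RefSeq promoter table (GRCm38.p6), which held 39 of the members. It was found in 6 of the 39 members, against 0.137% of all 27025 genes with a window. The sites are shown because they set these members apart by sequence from the other members searched. They are written along the strand that holds the element, with the fixed letters in capitals.
Hspa5: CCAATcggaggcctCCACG
Pdia6: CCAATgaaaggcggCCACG
Canx: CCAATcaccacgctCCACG
Calr: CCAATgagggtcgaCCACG
Dnajc3: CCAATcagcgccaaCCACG
Hsp90b1: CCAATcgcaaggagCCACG
Hsp90b1, other site: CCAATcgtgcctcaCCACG
The Calr site and the other site of Hsp90b1 lie on the strand opposite to the gene. A shorter relative, ERSE-II (ATTGG and CCACG with 1 base between), was found in Dnajb11 alone among the members and in 0.0444% of genes. The letters TGACGTGG of the unfolded protein response element were in none of the 39 members and in 0.714% of genes. A match describes letters only.

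The upstream stretches of 2 of these genes place the element relative to the start, which follows the last base printed. The first is Hspa5 at chr2:34771840-34772089 on the plus strand, and the second is Hsp90b1 at chr10:86705445-86705694 on the minus strand, each in GRCm38.p6 and written along the gene. Capitals mark the fixed letters of the element, and in Hsp90b1 the site nearer the start reads as its reverse complement.
Hspa5: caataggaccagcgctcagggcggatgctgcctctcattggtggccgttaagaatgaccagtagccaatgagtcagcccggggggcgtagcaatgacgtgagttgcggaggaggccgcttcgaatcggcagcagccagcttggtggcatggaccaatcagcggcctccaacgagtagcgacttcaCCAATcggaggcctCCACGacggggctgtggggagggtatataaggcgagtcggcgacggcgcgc
Hsp90b1: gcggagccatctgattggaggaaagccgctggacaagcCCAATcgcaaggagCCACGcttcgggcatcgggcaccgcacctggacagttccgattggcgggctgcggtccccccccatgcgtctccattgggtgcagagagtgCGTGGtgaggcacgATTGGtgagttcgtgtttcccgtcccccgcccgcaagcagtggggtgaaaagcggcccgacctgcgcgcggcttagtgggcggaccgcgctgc

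The arrays carried the lung's own markers: surfactant protein C (Sftpc) lay at 13.89 log2 or above and the alveolar type 1 gene Ager at 14.91 or above on every array. Eif4ebp2 was at 4.50, 5.49 and 4.67 log2 on the WT total arrays and at 2.61, 3.10 and 3.26 on the KO total arrays (-1.90, SE 0.25). Eif4ebp1, the other deleted gene, was at 8.25, 8.54 and 8.20 in WT total RNA and at 7.94, 7.92 and 7.93 in KO, a difference of only -0.40 (SE 0.11), and of -0.67 (SE 0.13) on polysomes. Where its probes lie relative to the deletion is not known here, so its level is a weak check of the labels. Array medians ran from 4.96 to 5.04 log2. Probe sets below the level for testing, a guide to the floor, had medians from 2.30 to 2.49. All values below are the authors' log2 values, a difference of 1 is a doubling, and adjusted p-values come from limma with Benjamini-Hochberg adjustment over 13802 probe sets.

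The largest change among the members was in Srpr, the alpha subunit of the receptor that catches the signal recognition particle at the ER membrane. Its message was lower in KO lung in both kinds of RNA, most of all on polysomes. On the WT polysomal arrays Srpr stood at 12.69 and 12.70 log2, and on the KO polysomal arrays at 9.64, 9.33 and 9.44. In total RNA it stood at 10.65, 11.08 and 10.27 in WT and at 9.24, 9.42 and 9.26 in KO. Every KO array lay below every WT array of the same RNA kind. It fell by 3.23 log2 units in polysomal RNA (SE 0.20, n = 2 WT and 3 KO, limma adjusted p = 0.00017), a 9.36-fold difference. This was the smallest p among the 8085 genes tested, and the difference was the third lowest. In total RNA it fell by 1.36 (SE 0.18, n = 3 and 3, limma adjusted p = 0.0015), which is 2.56-fold. In WT lung Srpr was 2.03 higher on polysomes than in total RNA (SE 0.20), whereas in KO lung the difference was 0.16 (SE 0.18, adjusted p = 0.45). The genotype difference on polysomes less that in total RNA was -1.87 (SE 0.27, limma adjusted p = 0.0040 for the interaction). None of the alternative settings and none of the arrays left out ended these 3 calls.

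**Figure D1:**
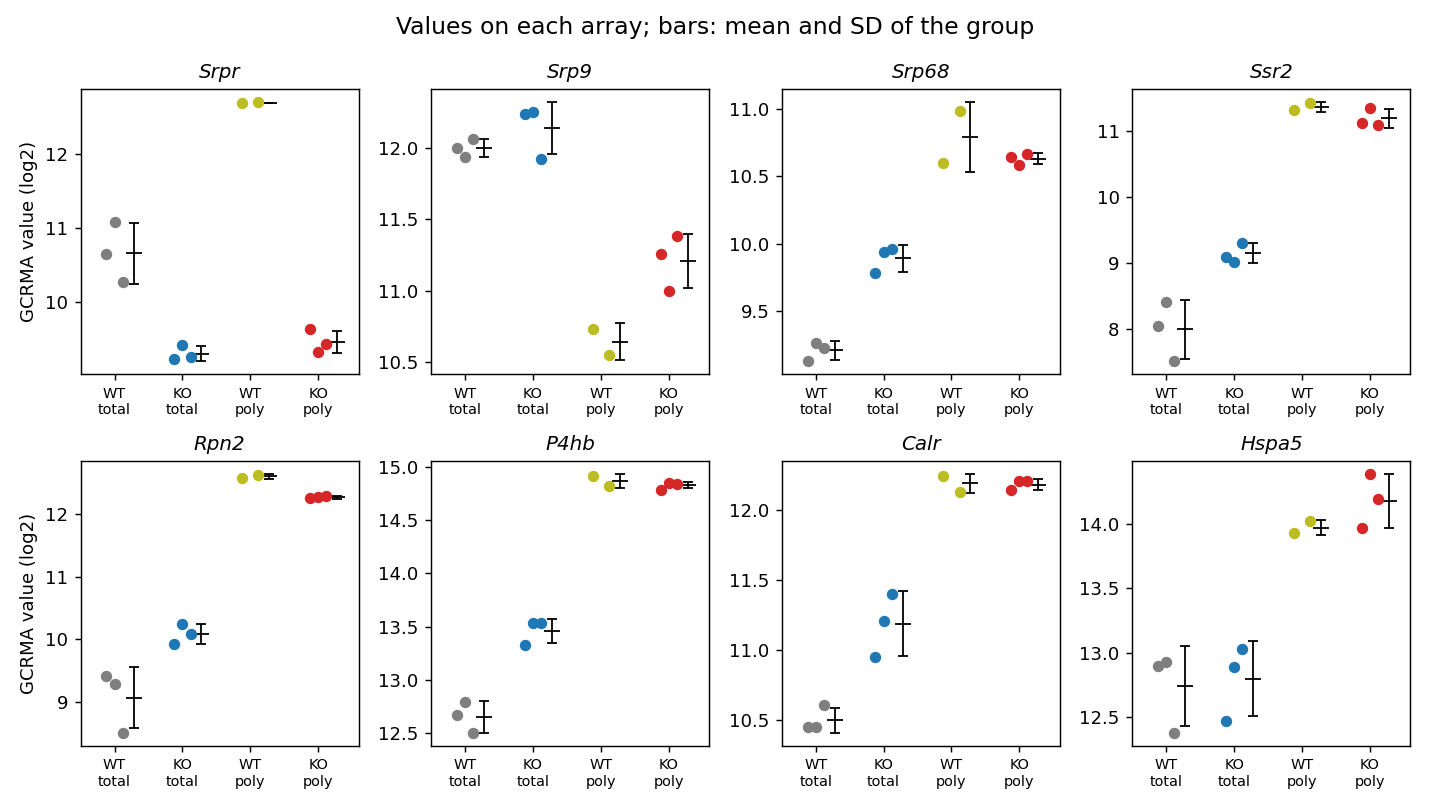
Log2 values of 8 members on each of the 11 arrays, by genotype (WT, KO) and RNA kind, with 1 dot per array and the mean and SD of each group as bars; each panel has its own log2 axis, spanning at least 2 units. Srpr is at 12.69 and 12.70 on the WT polysomal arrays and between 9.24 and 9.64 on all 6 KO arrays, while Ssr2, Rpn2, P4hb and Calr differ between genotypes in total RNA.

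The partner of Srpr and the particle itself gave other values. Srprb, the small membrane-anchored GTPase that holds Srpr at the ER, was at 5.93, 5.93 and 5.86 in WT total RNA and at 5.95, 5.97 and 5.84 in KO. On polysomes it was at 6.75 and 7.19 in WT and 5.97, 6.79 and 6.55 in KO, with overlapping groups and a difference of -0.53 (SE 0.21, limma adjusted p = 0.12). The Srprb probe set has values identical to an unnamed one, and the difference between the receptor subunits was not tested. Srp68, a scaffold protein of the particle, was at 9.13, 9.26 and 9.23 in WT total RNA and at 9.78, 9.94 and 9.96 in KO. All KO arrays were higher, and it rose by 0.68 (SE 0.11, limma adjusted p = 0.0028). On polysomes Srp68 was at 10.60 and 10.98 in WT and at 10.64, 10.58 and 10.66 in KO, with overlapping groups (-0.16, SE 0.12).

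Srp9, which with Srp14 forms the part of the particle that slows elongation, was the 1 member that rose on polysomes. It was at 10.73 and 10.55 in WT polysomal RNA and at 11.26, 11 and 11.38 in KO, without overlap (0.57, SE 0.14, limma adjusted p = 0.026). In total RNA Srp9 was at 12, 11.94 and 12.06 in WT and 12.24, 12.25 and 11.92 in KO, with overlap (0.14, SE 0.13). The polysomal call was lost without any 1 of 4 arrays, both WT polysomal arrays and KO polysomal replicates 1 and 3, and with a replicate block by set letter or a fit of the polysomal arrays alone. The letters A, B and C are a replicate set that the labels name without explaining it. Its partner Srp14 was at 0.15 (SE 0.11) on polysomes and Srp19 at 0.20 (SE 0.11). Srp54a, the GTPase subunit that reads the signal sequence, was at 0.71 (SE 0.48), with the largest SE of the members. Its probe set has values identical to 4 unnamed ones, and the near-identical copies Srp54b and Srp54c lie beside it, so which copy was measured is uncertain.

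In total RNA, some folding and glycosylation genes were higher in KO lungs and a few members were lower. Of the 40 tested members 10 rose and 3 fell, and 27 did not pass. Among all genes tested 17.2% were called higher and 5.97% lower, so rises were common in these libraries at large. Without KO total replicate 2, 7 of 40 members and 783 of 8085 genes were higher. The median difference of the members was 0.14, and that of all genes 0.09. The 10 that rose changed by 0.54 to 1.15. In total RNA the groups did not overlap for 21 of 40 members and for 3394 of 8085 genes. Fewer cells of a type and less RNA per cell cannot be told apart in these samples.

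Of 9 tested channel members, 2 rose in total RNA, both subunits of the translocon-associated complex that sits beside Sec61. Ssr2 was at 8.05, 8.42 and 7.52 in WT total RNA and at 9.10, 9.02 and 9.31 in KO. The groups did not overlap, and Ssr2 rose by 1.15 (SE 0.20, limma adjusted p = 0.0040). Ssr4 was at 9.72, 9.92 and 9.38 in WT and at 10.28, 10.36 and 10.42 in KO, again without overlap, and it rose by 0.68 (SE 0.14, limma adjusted p = 0.0094). Their partners Ssr1 (-0.03, SE 0.11) and Ssr3 (0.03, SE 0.11) did not pass. Sec61a1, the pore itself, was at 8.83, 8.76 and 8.86 in WT and at 8.74, 8.83 and 8.84 in KO, with overlap. Its difference of -0.01 (SE 0.07) had the smallest SE of the members. Sec61b (0.11, SE 0.09), Sec62 (-0.12, SE 0.08) and the J-domain partner Sec63 (0.15, SE 0.18) did not pass, nor did Tram1 (-0.23, SE 0.10), which sits beside the channel.

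None of the 4 tested signal peptidase members passed in total RNA. Spcs1 was at 0.32 (SE 0.12), Spcs2 at 0.38 (SE 0.16) and the catalytic subunit Sec11a at 0.28 (SE 0.13). The other catalytic subunit, Sec11c, was at 12.41, 12.32 and 12.23 in WT total RNA and 11.89, 12.03 and 12.15 in KO. All KO arrays were below the WT arrays, at a difference of -0.30 (SE 0.10, limma adjusted p = 0.056).

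Of 7 oligosaccharyl transferase members 3 rose in total RNA. Rpn2, a ribophorin, was at 9.42, 9.29 and 8.51 in WT and at 9.92, 10.24 and 10.08 in KO, without overlap, and rose by 1.01 (SE 0.20, limma adjusted p = 0.0082). Dad1 was at 10.26, 10.26 and 10.52 in WT and at 10.77, 11.03 and 10.88 in KO, and rose by 0.54 (SE 0.12, limma adjusted p = 0.011). Ostc, which links the transferase to the channel, rose by 0.78 (SE 0.21, adjusted p = 0.024), a call lost without KO total replicate 2 or 3 or in a fit of the total arrays alone. The catalytic subunits Stt3a and Stt3b were both at -0.12 (SE 0.11). Ribophorin Rpn1 was at 0.11 (SE 0.09) and Ddost at 0.45 (SE 0.22).

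Of 7 tested disulfide isomerases, oxidases and lectins, 3 rose in total RNA and 2 fell. P4hb, the classical protein disulfide isomerase, was at 12.67, 12.79 and 12.50 in WT and at 13.33, 13.53 and 13.53 in KO. The groups did not overlap, and P4hb rose by 0.81 (SE 0.10, limma adjusted p = 0.0010). The lectin chaperone Calr was at 10.45, 10.45 and 10.61 in WT and at 10.95, 11.21 and 11.40 in KO, and rose by 0.68 (SE 0.11, limma adjusted p = 0.0038). Its membrane-bound relative Canx was at 0.01 (SE 0.11). Pdia6 rose by 0.55 (SE 0.12, adjusted p = 0.012), and this call was lost without KO total replicate 2 and with a replicate block by set letter. Pdia4 fell by 0.67 (SE 0.19, adjusted p = 0.031). Ero1l (Ero1a in RefSeq), the oxidase that recharges the disulfide isomerases, fell by 0.48 (SE 0.12, adjusted p = 0.020). The calls for Pdia4 and Ero1l were each lost without any 1 of 4 of the total arrays. For Pdia4 these were KO replicates 1 and 2 and WT replicates 2 and 3, and for Ero1l all 3 KO arrays and WT replicate 2. A fit of the total arrays alone also ended the Ero1l call.

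Of 5 tested members of the Hsp70 and Hsp90 system, 1 rose in total RNA. Hsp90b1 (GRP94) rose by 0.79 (SE 0.20, limma adjusted p = 0.021), a call lost without WT total replicate 2 or KO total replicate 2 or 3, with a replicate block by set letter and in a fit of the total arrays alone. Hspa5 (BiP), the main ER chaperone and the usual readout of ER stress, was at 12.90, 12.93 and 12.38 in WT total RNA and at 12.47, 12.89 and 13.03 in KO. The groups overlapped at a difference of 0.06 (SE 0.19, limma adjusted p = 0.85). On polysomes Hspa5 was at 13.93 and 14.02 in WT and at 13.97, 14.39 and 14.19 in KO (0.21, SE 0.21). Its co-chaperones Dnajb9 (-0.16, SE 0.10) and Dnajb11 (0.16, SE 0.16) and its exchange factor Hyou1 (0.09, SE 0.16) did not pass in total RNA. Of the 5 tested members with the full ERSE printed above, Calr, Pdia6 and Hsp90b1 rose in total RNA, whereas Hspa5 and Canx did not pass. Beside this, 10 of all 40 tested members and 17.2% of all genes rose. The Pdia6 and Hsp90b1 calls were each lost without KO total replicate 2. A link between the element and the rises was not tested.

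The transcription factor Xbp1 was the 1 stress sensor member tested. It was at 12.01, 12.06 and 11.72 in WT total RNA and at 12.16, 12.27 and 12.22 in KO. The groups did not overlap, yet the difference of 0.28 (SE 0.14) did not pass (limma adjusted p = 0.17). On polysomes it was at 12.51 and 12.86 in WT and at 12.85, 12.76 and 12.46 in KO, with a difference of 0.00 (SE 0.16). The array gives 1 value for the gene, so spliced and unspliced Xbp1 were not separated. Ern1, the kinase and nuclease that splices Xbp1, was too dim to test. It was at 3.93, 3.37 and 3.84 in WT total RNA and at 3.23, 3.21 and 3.25 in KO. On polysomes Ern1 was at 3.21 and 3.15 in WT and at 3.14, 3.20 and 3.18 in KO.

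**Figure D2:**
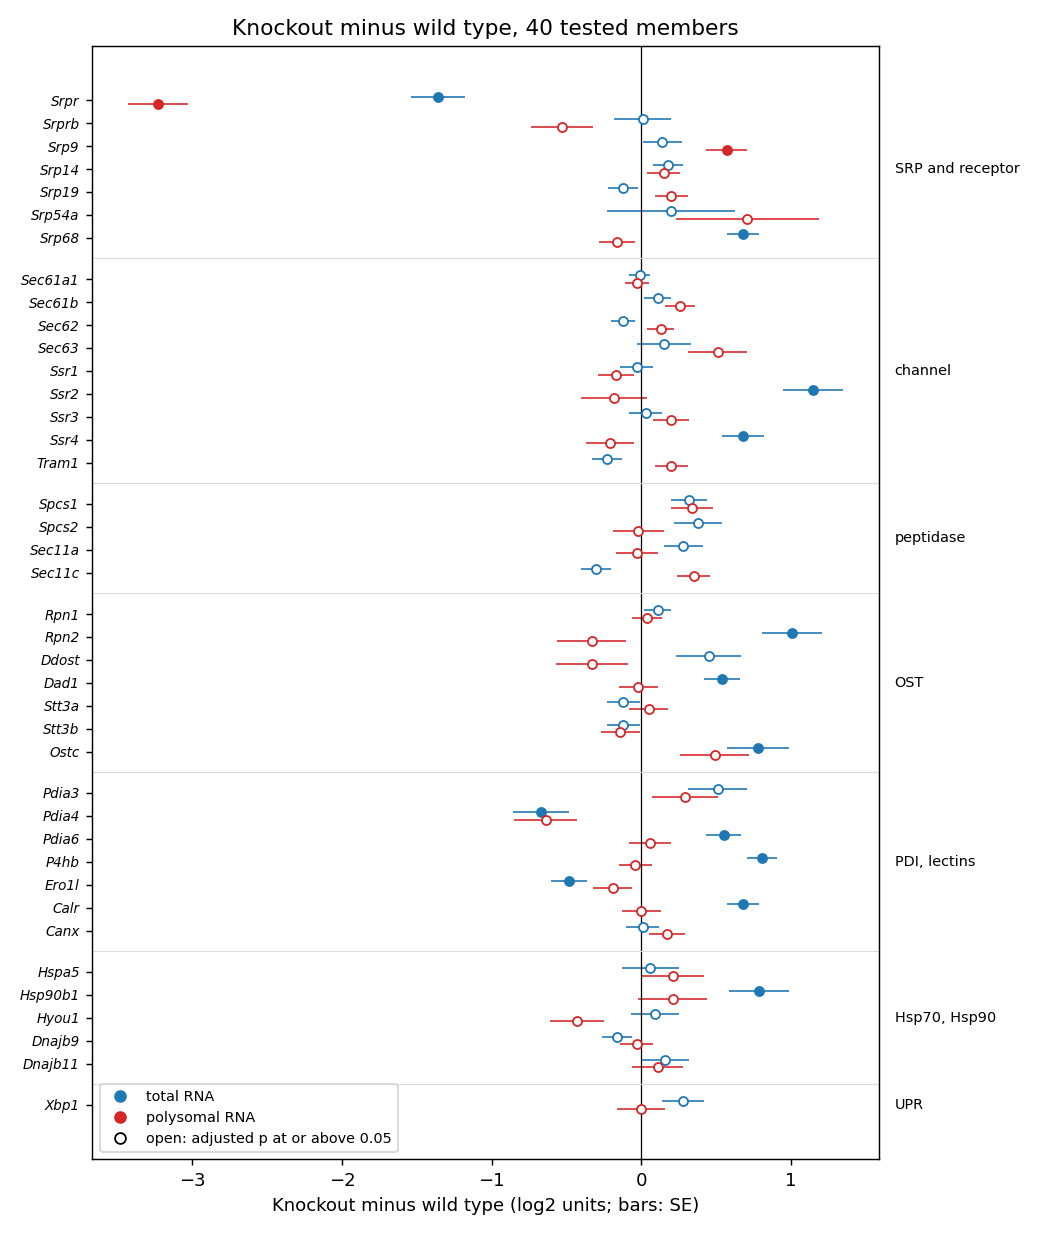
Knockout minus wild type in log2 units for the 40 tested members, grouped by role from top to bottom, with total RNA in blue, polysomal RNA in red, bars for the SE and filled symbols where the limma adjusted p is under 0.05. The 10 filled blue symbols to the right of 0 run from 0.54 to 1.15, and Srpr lies far to the left at -1.36 and -3.23.

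Markers of lung cell types moved in total RNA beside these rises. The mean log2 level of 8 alveolar type 2 markers was 13.32 to 13.64 on the WT total arrays and 13.92 to 14.01 on the KO total arrays, with 4 of 8 called higher. That of 7 airway secretory markers was 11.48 to 12.19 in WT and 12.58 to 12.84 in KO, with 3 of 7 higher. That of 7 fibroblast markers was 8.42 to 8.55 in WT and 8.90 to 8.99 in KO, with 1 of 6 tested higher. Endothelial markers were at 8.76 to 8.88 in WT and 9.55 to 9.75 in KO, with 5 of 7 higher. Alveolar type 1 markers were at 13.46 to 13.49 and 13.69 to 13.76, with 2 of 5 higher, and heart muscle markers at 6.98 to 7.67 and 7.70 to 8.42, with 3 of 7 tested higher. Alveolar macrophage markers were at 9.96 to 10.23 in WT and 9.75 to 9.96 in KO, with 1 of 6 tested higher and 3 lower. Plasma cell markers, of which 8 of 10 matched, were at 6.84 to 6.94 in WT and 6.62 to 6.93 in KO. Their median difference was 0.15, with 1 of 6 tested lower and none higher. The lower one was Jchain, the joining chain of antibodies (-1.65, SE 0.49, limma adjusted p = 0.037), whose groups overlapped and whose difference was -2.65 in set A and -0.08 in set B. Shares over all genes in total RNA were 17.2% higher and 5.97% lower. On polysomes no marker of alveolar type 2, airway secretory, endothelial or alveolar type 1 cells was called. There 1 of 6 tested fibroblast markers was higher and 1 lower, and 1 of 7 heart muscle markers was higher. Of 6 tested macrophage markers 3 were lower on polysomes, and of 6 plasma cell markers 1 was higher and 2 lower. Beside these polysomal counts, shares over all genes were 8.36% higher and 6.77% lower. The part of these cell types in the rises of the ER genes was not tested.

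In polysomal RNA few members differed between genotypes. Of 40 tested members 1 rose (Srp9), 1 fell (Srpr) and 38 did not pass. Among all genes 8.36% were called higher and 6.77% lower. The median difference of the members was 0.02 and that of all genes -0.01, and 20 members lay above 0 and 20 below. The 10 members that rose in total RNA were at -0.33 to 0.49 on polysomes, and 8 of them had overlapping groups there. Groups did not overlap on polysomes for 15 of 40 members and for 3957 of 8085 genes. Of the 10 members that rose in total RNA, Rpn2 had the lowest difference on polysomes (-0.33, SE 0.23). It was at 12.57 and 12.62 in WT polysomal RNA and at 12.25, 12.27 and 12.28 in KO. P4hb was at 14.92 and 14.82 in WT and at 14.79, 14.85 and 14.84 in KO, with overlap. Pdia4, which fell in total RNA, was at -0.64 on polysomes (SE 0.21, limma adjusted p = 0.070). Sec11c was at 11.41 and 11.47 in WT polysomal RNA and 11.76, 11.92 and 11.70 in KO (0.35, SE 0.11, limma adjusted p = 0.058). With 2 WT arrays this comparison has larger SEs than that in total RNA. In 1 set of simulated data for it, 24.2% of 66 genes changed by 0.5 log2 units were recovered and 100% of 67 changed by 2. Far fewer genes were changed there than were called here, so the recovery in the real data may differ.

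The interaction sets the genotype difference on polysomes against that in total RNA. It was lower for 8 members and higher for 1, and 31 did not pass. Among all genes 14.2% were lower and 8.06% higher. Srpr had the lowest value, from its deeper fall on polysomes. The other 7 lower members also rose in total RNA, and since the interaction subtracts that same difference, the 2 calls are not independent. They were Rpn2 (-1.34, SE 0.31), Ssr2 (-1.33, SE 0.29), Ssr4 (-0.89, SE 0.21), P4hb (-0.85, SE 0.15), Srp68 (-0.85, SE 0.16), Calr (-0.68, SE 0.17) and Dad1 (-0.56, SE 0.18). None of these 7 passed in polysomal RNA itself. Sec11c was the 1 higher member, at 0.65 (SE 0.15, limma adjusted p = 0.016), with KO below WT in total RNA and above it on polysomes. The Dad1 call was lost without any 1 of 9 arrays and under 4 other settings, and the Calr call without WT total replicate 1, KO total replicate 2 or WT polysomal replicate 1 and under quantile normalization. The calls for Ssr2 and Rpn2 were lost without WT polysomal replicate 2 and that for Ssr4 without WT polysomal replicate 1. A replicate block by set letter ended the calls for Sec11c, Dad1 and Calr. Without WT polysomal replicate 1, 5 members were lower, and 790 of 8085 genes against 1151 with all arrays.

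Polysomal minus total RNA compares the pool of fractions 7 to 10 with total RNA, on these arrays' own scale. The spread of a message over the gradient was not measured. Each kind of RNA was labelled from 100 ng, so the values are relative to the other messages of the same RNA. Whether RNA quality or amplification differed between the 2 kinds was not tested. In WT lung 28 of 40 members were higher on polysomes, 5 lower and 7 did not pass. Among all genes 44.5% were higher and 27.9% lower. The median of the members was 1.09 and that of all genes 0.22. In KO lung 27 members were higher, 2 lower and 11 did not pass, against 39.5% and 25.7% of all genes. The medians there were 0.77 and 0.13. Of the higher calls in KO, that of Srprb was lost without any 1 of 7 arrays and that of Ostc without any 1 of 6. Both were also lost without a filter on low values. The Xbp1 call was lost without KO polysomal replicate 1. The 10 members that rose in KO total RNA were at 0.85 to 3.53 in WT and at 0.56 to 2.48 in KO. The WT total arrays serve both this comparison and the genotype difference in total RNA, so these values are not independent of the rises.

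By role, WT polysomal minus total values were as follows. Disulfide isomerases and lectins had a median of 1.68, led by Pdia3 at 3.26 (SE 0.22), the isomerase that works with Calr and Canx, and 6 of 7 were higher. The Hsp70 and Hsp90 members also had a median of 1.68, with Hsp90b1 at 3.06 (SE 0.23) and all 5 higher. The Dnajb9 call among these was lost without WT total replicate 2 or WT polysomal replicate 1 and with a replicate block by set letter. The same block ended the Hspa5 call, and that of Canx among the disulfide isomerases and lectins. Quantile normalization also ended the calls of Dnajb9 and Canx. In the oligosaccharyl transferase Rpn2 was at 3.53 (SE 0.23) and Dad1 at 2.76 (SE 0.13), while Stt3a (0.02, SE 0.13) and Stt3b (-0.02, SE 0.13) did not pass. In the signal peptidase, Sec11a was at 2.60 (SE 0.14) and Sec11c at -0.88 (SE 0.11). The signal recognition particle and receptor had a median of 1.06, and the channel members 0.06. The channel members ran from -0.51 to 3.37, with 4 of 9 higher and 2 lower. Ssr2 was at 3.37 (SE 0.22) and Ssr4 at 1.96 (SE 0.16).

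The 5 members lower on WT polysomes were Srp19 (-1.61, SE 0.11), Srp9 (-1.36, SE 0.14), Tram1 (-0.51, SE 0.11), Sec62 (-0.30, SE 0.09) and Sec11c, given above. The Sec62 call was lost without WT polysomal replicate 2, with a replicate block by set letter and in a fit of those groups alone. In KO, Srp19 (-1.29, SE 0.10) and Srp9 (-0.93, SE 0.13) were again lower. Sec61a1 was near 0 in both genotypes (0.06, SE 0.08 in WT and 0.04, SE 0.07 in KO). For 28 of 40 members the value in KO was nearer 0 than in WT, and this held for 72.2% of all genes, so it is not particular to the members. Under quantile normalization 9 members were lower in WT in place of 5, and 2687 of 8085 genes in place of 2258. In that fit the value of Stt3a was -0.36 and passed, and that of Dnajb9 turned from 0.33 to -0.11.

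**Figure D3:**
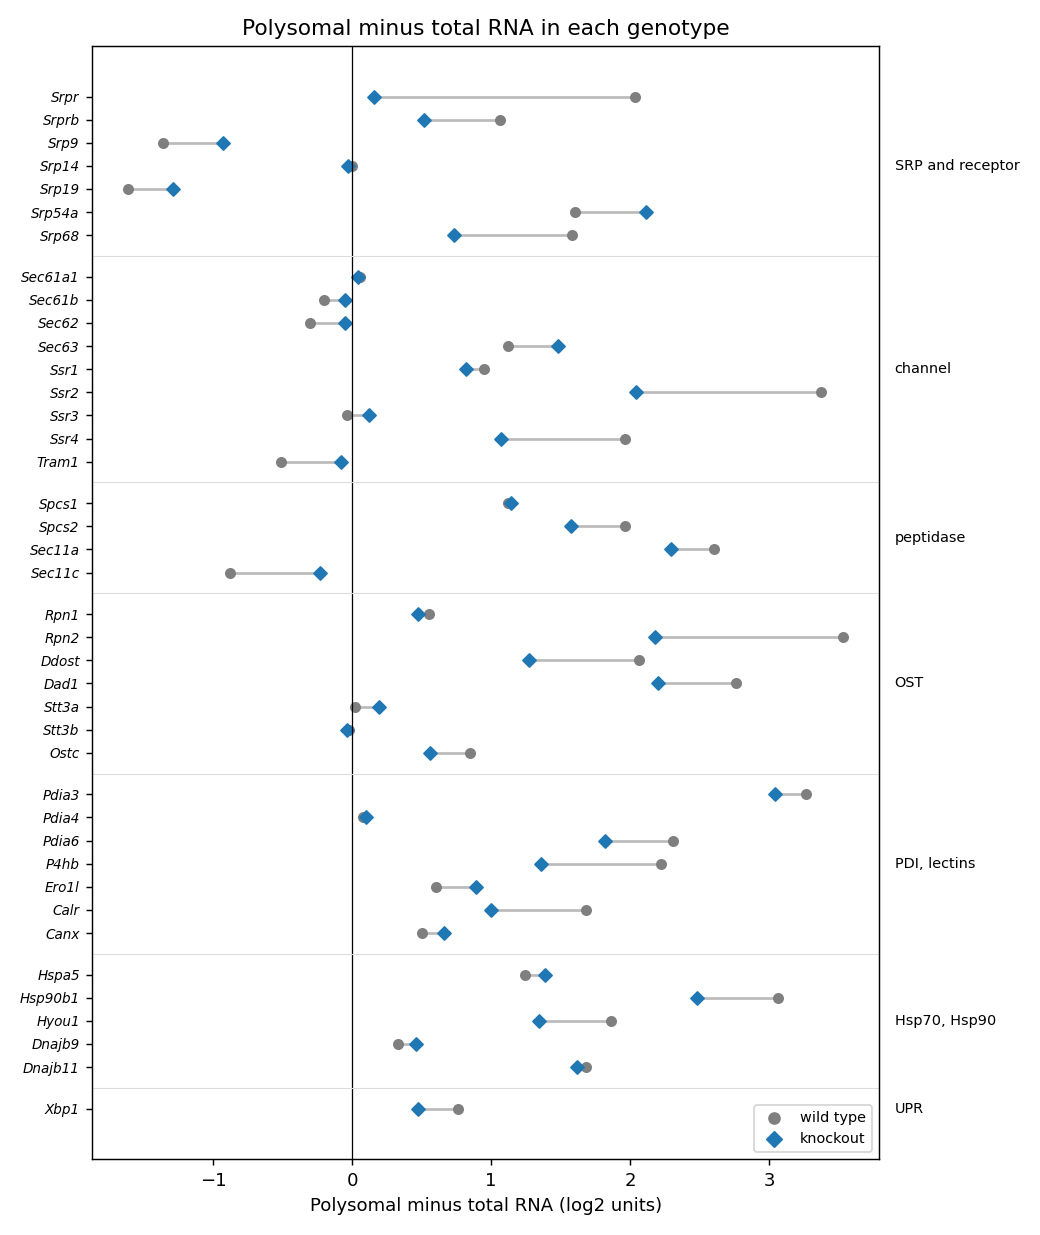
Polysomal minus total RNA in log2 units for the 40 tested members, grouped by role, with wild type as grey circles, knockout as blue diamonds and a line joining the pair. Most members lie to the right of 0, Rpn2 reaches 3.53 in wild type, Srp9 and Srp19 lie to the left in both genotypes, and Srpr moves from 2.03 to 0.16.

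Across the arrays, WT total replicate 3 often held the lowest WT total value. This was so for 26 of 40 members, or 65%, and for 46% of all genes tested. Rpn2 at 8.51, Ssr2 at 7.52 and Ostc at 6.73 on that array are examples. Without it 10 members still rose in total RNA and 4 fell, and on polysomes 3 rose. Calls over all 8085 genes also grew in that fit. In total RNA 1460 were higher and 702 lower, against 1393 and 483 with all arrays. On polysomes 889 were higher, against 676. The difference in Srpr within sets was -1.63 in set A and -0.93 in set B in total RNA, and -3.36 in set B and -3.26 in set C on polysomes. These within-set values rest on 1 or 2 arrays of each genotype and were not tested.

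**Figure D4:**
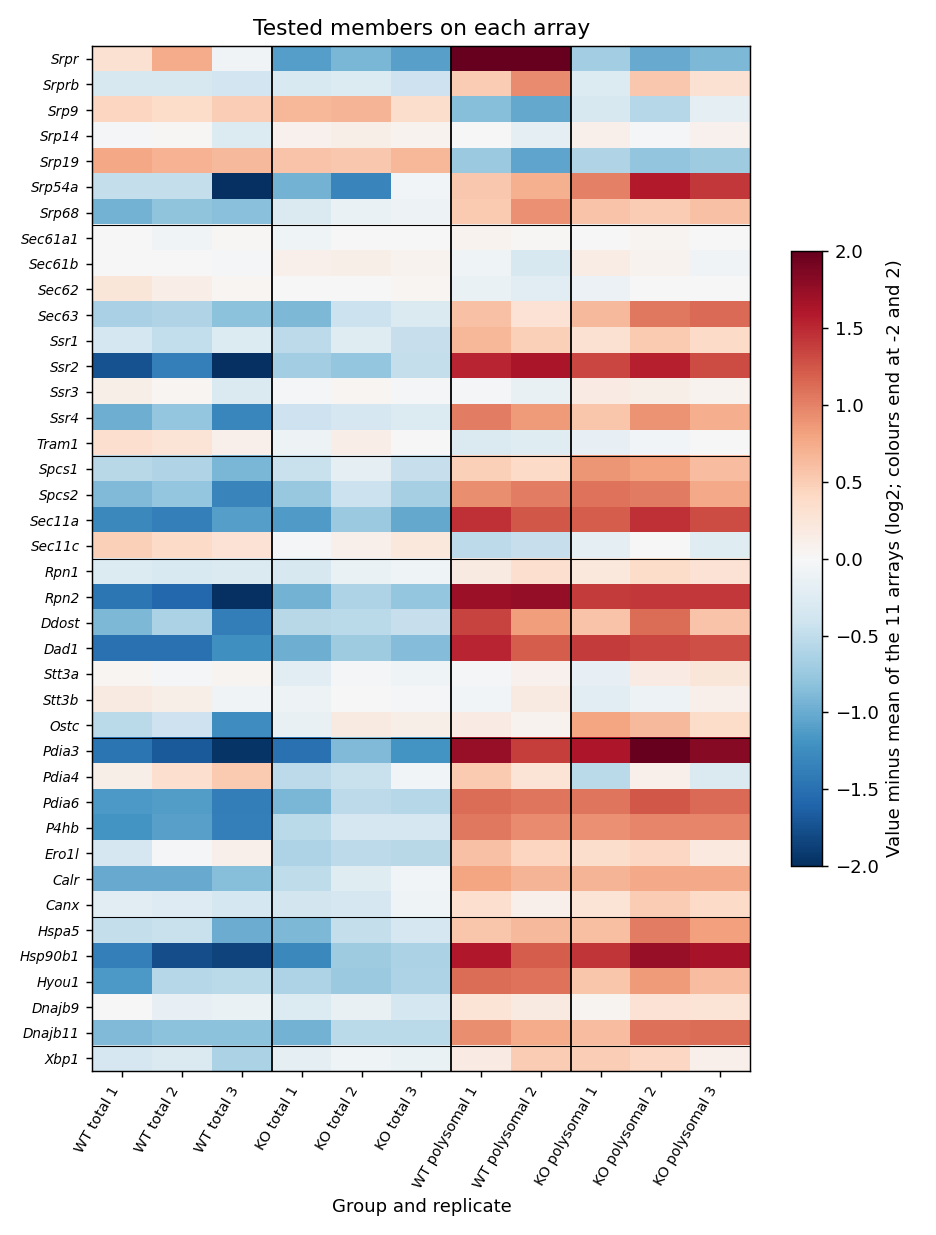
Heat map of the 40 tested members (rows, grouped by role) on the 11 arrays (columns, by group and replicate), coloured by the log2 value minus the member's mean over all arrays, with colours ending at -2 and 2. The polysomal arrays are redder than the total arrays for most members, Srpr is red on the WT polysomal arrays and blue on all 6 KO arrays, and Rpn2 and Ssr2 are among the deepest blue on WT total replicate 3.

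Genes that work before and after these steps were counted from 6 further lists. Their counts stand beside shares over all genes of 17.2% higher and 5.97% lower in total RNA, and 8.36% and 6.77% on polysomes, and nothing particular to a list is read from them. Of 21 tested genes of glycan trimming and ER-associated degradation, 3 rose and 2 fell in total RNA, with a median of 0.10. Vcp, the ATPase that pulls misfolded chains out of the ER, rose by 0.82 (SE 0.13, limma adjusted p = 0.0033), the trimming enzyme Ganab (glucosidase II) rose by 0.73 (SE 0.14), and the mannosidase-like Edem3 fell by 0.55 (SE 0.12). On polysomes 1 fell, Faf2 at -0.55 (SE 0.11), and 20 did not pass. Of 14 tested genes of the wider stress response, 2 rose in total RNA, Pdia5 (0.36, SE 0.10) and Atf4, the transcription factor of the integrated stress response (0.51, SE 0.16). On polysomes 1 fell, the BiP exchange factor Sil1 (-0.59, SE 0.17).

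The coat and cargo genes of ER export showed 3 higher and 1 lower of 19 tested in total RNA. Mia3, the collagen export receptor, rose by 1.22 (SE 0.26, limma adjusted p = 0.011) and the coat subunit Sec13 by 0.82 (SE 0.21), and Tmed2 fell by 0.38 (SE 0.11). On polysomes the retrieval receptor Kdelr3 rose by 1.07 (SE 0.30), from WT polysomal values of 4.70 or less, below the level for testing, and Sec16a fell by 0.45 (SE 0.10). Of 16 tested genes that build the sugar donor, 2 rose in total RNA, Alg5 (0.53, SE 0.12) and Dpagt1, the first enzyme of the route (0.50, SE 0.13). On polysomes Alg2 (-0.46, SE 0.11) and Alg5 (-0.55, SE 0.14) fell.

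Of 21 tested genes of other insertion routes and transferase subunits, 6 rose in total RNA and none fell. Get3 (listed as Asna1), the ATPase that delivers tail-anchored proteins to the ER, rose by 2.09 (SE 0.25, limma adjusted p = 0.0010), its upstream partner Sgta by 0.77 (SE 0.12) and the channel-associated Ncln by 1.22 (SE 0.22). Ncln was below 5 on all 6 total arrays (3.01, 2.27 and 3.09 in WT, 3.96, 3.97 and 4.09 in KO), and Get3 on the WT total arrays (3.84, 4.68 and 3.58). Both entered the test through other arrays, and their sizes near the floor are uncertain. On polysomes 1 rose, Emc2 (0.73, SE 0.15). Of 18 collagen folding and further disulfide isomerase genes, 5 rose in total RNA and none fell. They included the prolyl isomerase Fkbp2 (0.89, SE 0.16), the collagen chaperone Serpinh1 (0.73, SE 0.14) and Txndc5 (0.56, SE 0.12). On polysomes the catalytic subunits of collagen prolyl hydroxylase, which pair with P4hb, fell: P4ha1 by 1.07 (SE 0.20, limma adjusted p = 0.0086) and P4ha2 by 0.91 (SE 0.19, adjusted p = 0.012). P4hb itself was at -0.04 (SE 0.11) there.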

How the data were processed

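The authors deposited log2 values, made with GCRMA per the submitters' processing notes (version not given in the sources used). That they are log2 was judged from their range of 0.73 to 16.7. Per the labels, 100 ng of RNA was labelled with a kit for 2 amplification rounds. Of 26180 probe sets, 15228 matched 1 gene in the RefSeq table of GRCm38.p6, and 7538 repeat another row exactly, so p-values were adjusted over partly repeated rows.

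With limma 3.58.1 (R 4.3.3), group means were fitted to all 11 arrays (lmFit, eBayes, 7 residual degrees of freedom, prior 2.67), over 13802 probe sets, with two-sided tests and a threshold of 0.05. Differences carry the standard error (SE) of the fit. Where a gene had several probe sets, that of highest mean stood for it. The number of arrays limits the precision. When the total RNA contrast was tested on simulated data of 8085 genes, it recovered 31.8% of changes of 0.5 log2 units, 74.6% of 1 and 100% of 2, and 7.38% of the calls were false. Those data were made 1 time and held 66 or 67 changed genes of each size. The real contrast called 1393 genes higher and 483 lower, so these rates may not carry over to it.

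The members and lists were chosen with earlier results of these data known. Values on every array were given for Srpr, Srprb, Sec61a1, Hspa5, Xbp1 and Ern1 and for up to 8 called members with the smallest p per genotype contrast, and up to 3 called genes of each further list were named. Alternatives were other filters, quantile normalization, equal array medians, a trend, a block by set letter, fits of the groups alone, leaving out each array and, added after seeing the data, leaving out repeated rows. Figures were drawn with matplotlib 3.10.9.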

Additional observations from a re-analysis of the deposited data

Results flagged for a closer look

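For 9 members the genotype difference on polysomes differed from that in total RNA by the limma interaction test. In log2 units these were Srpr at -1.87, Rpn2 at -1.34, Ssr2 at -1.33, Ssr4 at -0.89, Srp68 at -0.85, P4hb at -0.85, Calr at -0.68, Dad1 at -0.56 and Sec11c at 0.65. Groups of 2 or 3 arrays are too small for a test of single outlying arrays.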

How the results depend on the processing

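With 1 array left out, the total RNA contrast gave 7 to 10 members higher and 1 to 4 lower, with 1 lower without KO total replicate 1 or 2 or WT total replicate 2. Over all 8085 genes the same fits gave 783 to 1460 higher and 181 to 702 lower. The polysomal contrast gave 0 to 3 higher (3 without WT total replicate 3) and 1 to 2 lower (2 without WT total replicate 1 or KO polysomal replicate 2). Over all genes those fits gave 352 to 889 higher, with 889 in the fit with 3 members higher, and 267 to 755 lower. The interaction gave 1 to 2 higher (2 without WT total replicate 3) and 5 to 8 lower, and 379 to 808 of all genes higher and 672 to 1279 lower. Polysomal minus total RNA gave 27 to 28 higher and 4 to 6 lower in WT and 25 to 27 higher and 2 to 3 lower in KO. For all genes the ranges were 3298 to 3599 and 1999 to 2267 in WT, and 2920 to 3326 and 1859 to 2166 in KO. Without a filter, 6 members were lower in total RNA and 8 lower on polysomes in WT, since the dim members were then tested too. Of the 14351 genes then tested, 2655 were lower in total RNA and 6485 lower on polysomes in WT. Under quantile normalization, 5 members were lower in total RNA, 2 were higher in the interaction, and 9 in WT and 6 in KO were lower on polysomes. Lower calls over all genes also grew there, from 483 to 779 in total RNA. On polysomes they grew from 2258 to 2687 in WT and from 2080 to 2383 in KO. In the interaction, higher calls over all genes grew from 652 to 733. Equal array medians or a trend gave 2 higher on polysomes and 2 higher in the interaction. Of all genes, 724 or 706 were then higher on polysomes and 692 or 665 in the interaction. Fits of the polysomal groups alone gave 0 members and 354 of all genes higher. The replicate block by set letter gave 0 members higher on polysomes and in the interaction, where 439 and 443 of all genes were higher. It changed no other member count by over 1.5 times. Yet in WT polysomal minus total RNA it ended the higher calls of Srprb, Srp54a, Sec63, Rpn1, Ostc, Canx, Hspa5 and Dnajb9. In KO it ended those of Srprb, Srp54a, Ostc, Dnajb9 and Xbp1. Quantile normalization ended the higher calls of Rpn1, Canx and Dnajb9 in WT and of Rpn1, Dnajb9 and Xbp1 in KO. Arrays of the same letter and RNA kind had deviations correlated at -0.05 to 0.12 over probe sets. On polysomes the same-letter pairs were at 0.12 and 0.10 and the other pairs at -0.12 to 0. The deviations of the 2 WT polysomal arrays mirror each other, so these values cannot decide whether the letters are pairs. The main fit used no block because the labels name no pairing. The values of Stt3a (-0.36) and Dnajb9 (-0.11) in WT polysomal minus total RNA turned sign under quantile normalization, and the cause was not tested. Of all genes called in total RNA, 74.3% were higher, against 60.6% under quantile normalization and 37% without a filter; quantile normalization also moved the median of all genes in WT polysomal minus total RNA from 0.22 to 0.06. Each member had 1 probe set, so the planned mean over probe sets was not run.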
